A study of Saccharomyces cerevisiae with 30 samples.

Results

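Endoplasmic reticulum (ER)-associated degradation (ERAD) removes misfolded and surplus proteins from the ER, and 10 yeast genes of its ubiquitin ligases and their partners are described here. They were chosen by name: HRD1, HRD3, DER1, DFM1, USA1, YOS9, CUE1, UBC7, SSM4 (also called DOA10) and UBC6. Each had 1 row in every one of the 30 libraries, among 5890 genes listed in all, and all 10 passed the minimum mean input count of 20 that left 5286 genes to test.

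In budding yeast, Hrd1 and Doa10 are membrane-embedded ubiquitin ligases that mark proteins for the proteasome, Hrd1 acting mainly on lesions in the lumen and membrane and Doa10 mainly on cytosolic ones. Hrd1 works in a complex with Hrd3, Usa1, Der1 and the lectin Yos9, while Dfm1 is a relative of Der1 that helps to pull membrane proteins out. Ubc6 and Ubc7 are the ubiquitin-conjugating enzymes, and Cue1 holds the soluble Ubc7 at the membrane. The members reach the membrane by different signals: Hrd1, Doa10, Der1, Dfm1 and Usa1 have internal transmembrane segments without a cleaved signal, Hrd3 and Yos9 have a cleaved signal sequence, Cue1 has an N-terminal anchor, Ubc6 has a tail anchor that is inserted after translation, and Ubc7 is made in the cytosol.

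The study measured where ribosomes translate these messages while the signal recognition particle (SRP), which brings ribosomes to the ER, was being removed. All strains carried Srp72, an SRP core protein, with an auxin-inducible degron (SRP72-AID-HA), the auxin receptor OsTIR1 and RPL16a-HA-TEV-AVI and RPL16b-HA-TEV-AVI, so that both copies of a ribosomal protein could be biotinylated. Cells in SD medium received 500 µM auxin for 0, 15, 30 or 60 min, and 10 nM biotin was given at the end. A biotin ligase (BirA) at 1 surface tagged nearby ribosomes, a streptavidin pulldown collected them, and footprints were sequenced from pulldown and whole-cell input.

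The 15 pairs of pulldown and input formed 5 series. At the ER, SEC63-mVenus-BirA was used with 100 µg/ml cycloheximide (0, 15, 30 and 60 min auxin; here the Sec63 series) and without it (0, 30 and 60 min). A second ER ligase (the Ubc6 series, 0, 15, 30 and 60 min, with cycloheximide) was BirA-mVenus fused to the tail anchor of UBC6, expressed from the SEC63 promoter at his3, with the native UBC6 gene still present. On mitochondria, TOM20-mVenus-BirA and OM45-mVenus-BirA were used at 0 and 30 min with cycloheximide. Cycloheximide was given for 2 min and biotin for 2 min in those series, against a biotin pulse of 1 min without cycloheximide. Only the Tom20 series used W303 cells instead of S288C, so bait and strain cannot be told apart there. S288C strains carried leu2-delta-0, met15-delta-0 and ura3-delta-0. The W303 strain carried ade2-1, ura3-1, trp1-1 and can1-100 together with leu2 and his3 alleles. No condition had a second library, so the series is what repeats. For changes with auxin, p-values measure how far the series differ in their change. ER and mitochondrial series share 1 error in the fit of enrichment. Errors of the mitochondrial changes therefore draw largely on the spread among ER series. The fit gave each series its own enrichment at 0 min, so p-values of ER enrichment at 0 min leave out the spread between series. The test of ER against mitochondrial baits at 0 min does measure that spread. With 1 series on each side, the tests of ER bait and of cycloheximide measure the spread over matched times.

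Footprints in listed genes, in mega (M), numbered 2.04 to 113 M per input (median 22.0 M) and 4.86 to 103 M per pulldown (median 19.7 M), the smallest input being that of the Ubc6 series at 0 min. SRP72 messages, which only check the label indirectly because the degron acts on the protein, fell in inputs by 0.32 on the log2 scale after 30 min (edgeR adjusted p = 0.0074). The surfaces were checked with 4 messages each. At 0 min, SEC61, KAR2, OST1 and ERG11 had enrichments of 3.45 to 3.99 log2 units more at ER than at mitochondrial baits, and TOM70, ATP2, TIM44 and MRPL3 had -4.41 to -3.95.

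The coding sequences lie on 7 chromosomes of the R64 assembly, from which lengths and positions below come. HRD1 (YOL013C) is at chromosome XV, 301380 to 303035, HRD3 (YLR207W) at XII, 556788 to 559289, and USA1 (YML029W) at XIII, 217362 to 219878. DER1 (YBR201W) is at II, 623576 to 624211, DFM1 (YDR411C) at IV, 1293369 to 1294394, and YOS9 (YDR057W) at IV, 565927 to 567555. SSM4 (YIL030C) is at IX, 296050 to 300009, CUE1 (YMR264W) at XIII, 795805 to 796416, UBC7 (YMR022W) at XIII, 318680 to 319177, and UBC6 (YER100W) at V, 359562 to 360314.

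How strongly each message is translated was read from the authors' RPKM, which corrects for length, in the 15 inputs. The conjugating enzymes and their tether stood at the top. UBC7 had a median of 154 RPKM (70.6 to 244), UBC6 109 (95.4 to 137) and CUE1 81.0 (65.5 to 123). DFM1 followed with 58.4 RPKM and SSM4 with 39.9. The members of the Hrd1 complex were the lowest, with USA1 at 23.3, HRD3 at 21.4, YOS9 at 19.3, DER1 at 18.1 and HRD1 itself at 12.6 RPKM.

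Neighbours in this order were mostly ranked the same way within each library. The higher of each pair was higher in 14 or 15 of 15 inputs from UBC7 down to USA1, and again for DER1 over HRD1 (14 of 15). USA1 exceeded HRD3 in 12 of 15. HRD3 over YOS9 and YOS9 over DER1 held in 7 of 15 each, so those neighbours had no order beyond their spread. Ranges of every neighbouring pair overlapped across libraries, since the RPKM of 1 gene moved up to 3.46 times between inputs.

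**Figure D1:**
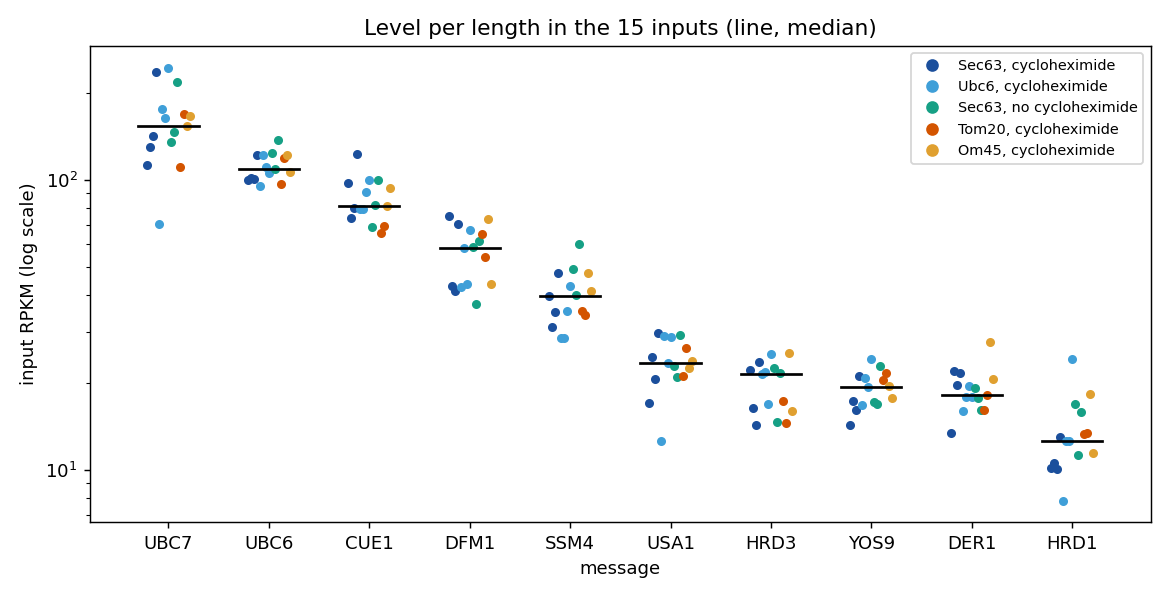
Footprint level per length (RPKM, log scale) of the 10 ERAD messages in the 15 inputs, 1 point per input coloured by series, with the median as a line. UBC7, UBC6 and CUE1 lie highest (medians 154, 109 and 81.0) and HRD1 lowest (12.6).

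The first comparison asked which of these messages were translated at the ER while SRP was intact. Enrichment is given as log2 of pulldown over input. At 0 min, 8 of the 10 messages were enriched at ER baits over 3 series, led by HRD3 (3.47 ± 0.14, SE) and HRD1 (3.10 ± 0.18), and the 2 exceptions were UBC6 and UBC7. Among all genes tested, 19.5% passed as higher at ER baits and 44.5% as lower, 64% in either direction (edgeR quasi-likelihood test, Benjamini-Hochberg adjusted p below 0.05). Pulldown libraries are compositional: the median gene had -0.33, so each value is best read against that. The share of lower genes moved with the setting: 2353 genes were lower, against 252 without the Sec63 cycloheximide series, 856 with median centring and 3982 with library totals, while the count of higher genes stayed between 888 and 1139.

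The Hrd1 complex was enriched throughout. HRD1, the ligase, had 4.21 in the Sec63 series, 3.13 in the Ubc6 series and 1.96 in the Sec63 series without cycloheximide, against -0.60 with Tom20 and -0.04 with Om45. HRD3, its luminal partner, had 4.24, 3.46 and 2.69 in the same ER order, against -0.63 with Tom20 and 0.07 with Om45. The lectin YOS9 had 3.97, 2.80 and 1.79, against -0.46 and 0.27. For all 3 messages the ER pairs lay above both mitochondrial pairs.

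The derlins and the scaffold followed the same order of baits. DER1 had 4.05, 1.81 and 1.10 at the ER, against -0.62 with Tom20 and -0.02 with Om45. DFM1 had 4.13, 2.91 and 1.63, against -0.62 and -0.07. USA1, which links Hrd1 to Der1, had 3.16, 1.76 and 0.42, against -0.34 and -0.20. The groups did not overlap for any of these messages, and USA1, at 0.42 against -0.20, came closest.

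SSM4, the Doa10 ligase, had 3.67 in the Sec63 series, 2.40 in the Ubc6 series and 2.08 in the Sec63 series without cycloheximide, against -0.66 with Tom20 and -0.31 with Om45. CUE1 had 4.24, 3.17 and 1.59, against -0.52 and -0.11. The enzyme that Cue1 tethers differed from it: UBC7 had -0.91, -0.20 and 0.11 at the ER, against -0.03 with Tom20 and -0.48 with Om45. UBC6 had -0.50 in the Sec63 series and -0.08 in the Sec63 series without cycloheximide, against -0.36 and -0.49 at mitochondria, and -0.81 in the Ubc6 series, which is read apart because its bait carries the UBC6 tail. ER and mitochondrial pairs of UBC6 and UBC7 overlapped.

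By edgeR, the remaining enrichments at the ER at 0 min were 3.02 ± 0.14 for CUE1, 2.89 ± 0.17 for DFM1, 2.87 ± 0.15 for YOS9, 2.73 ± 0.14 for SSM4, 2.37 ± 0.29 for DER1 and 1.78 ± 0.25 for USA1 (n = 3 series, largest adjusted p of the 8 messages 6.64e-05). These errors, and those of HRD3 and HRD1 above, leave out the spread between series, since each series had its own enrichment in the fit. That spread was much wider, from 0.78 for HRD3 to 1.37 for USA1 and 1.54 for DER1 (SD, n = 3 series). HRD3 stood above 98.5% of all genes tested and above 92.4% of the 1030 genes that passed as higher at ER baits, whereas USA1 stood above only 21% of those. UBC6 (-0.45 ± 0.13, edgeR adjusted p = 0.00912) and UBC7 (-0.35 ± 0.12, adjusted p = 0.0242) passed as lower, close to the median gene. Both calls were lost with DESeq2 and with enrichments centred on the median, and without the Ubc6 series UBC6 had -0.21 (edgeR adjusted p = 0.149).

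**Figure D2:**
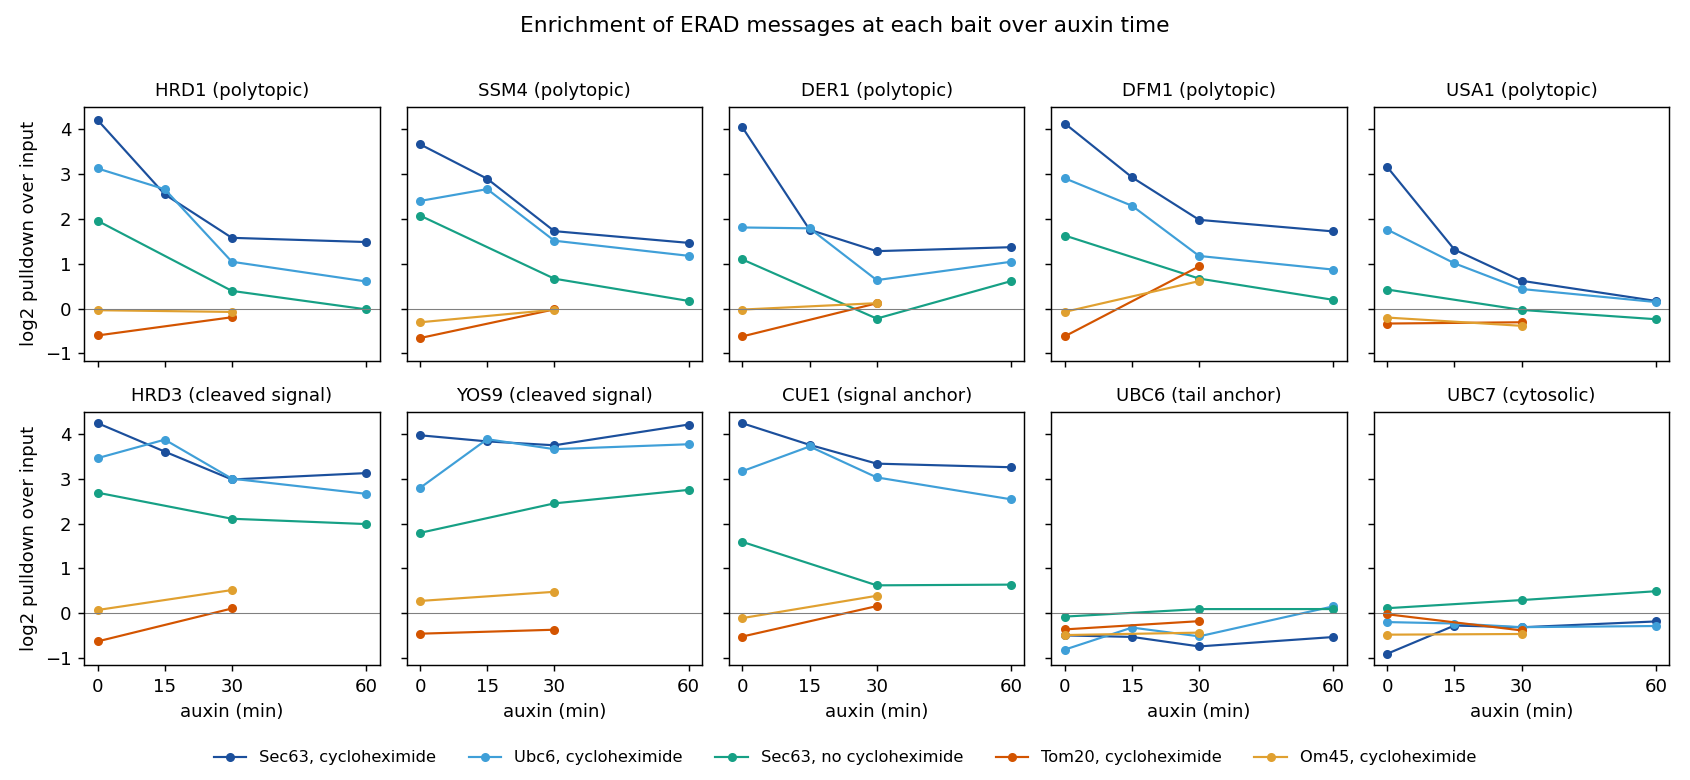
Enrichment (log2 pulldown over input, y axis) of each ERAD message against minutes of auxin (x axis), 1 line per series and 1 pair of libraries per point. The 5 polytopic messages start high at the 3 ER series and decline, YOS9 stays high, and UBC6 and UBC7 lie between -0.91 and 0.49 at every bait.

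Set against mitochondrial baits (3 ER series, 2 mitochondrial series, 0 min), 6 messages were higher at ER baits by edgeR: HRD3 by 3.82 ± 0.62 (adjusted p = 0.0103), SSM4 by 3.26 ± 0.61, HRD1 by 3.48 ± 0.76, CUE1 by 3.41 ± 0.87, DFM1 by 3.31 ± 0.83 and YOS9 by 3.01 ± 0.75. Of all genes, 9.48% passed in that direction and 20.3% in either. DER1 (2.67 ± 0.95, edgeR adjusted p = 0.114) and USA1 (2.12 ± 0.86, adjusted p = 0.164) did not pass by edgeR, but both passed with DESeq2 (adjusted p = 0.0149 and 0.0413). DER1 also passed in edgeR with library totals (adjusted p = 0.00658) and without the Sec63 cycloheximide series (1.61, adjusted p = 0.0267). UBC6 (0.04 ± 0.27) and UBC7 (-0.00 ± 0.33) differed by less than their errors. The count rested on few series: it was 0 when the Tom20, Om45 or Ubc6 pairs were left out, and 8 when the Sec63 pairs made with no drug were left out. The genes higher at ER baits moved likewise over the whole table, at 501 with all pairs, 0 without Tom20, 8 without Om45, 8 without Ubc6 and 889 without the Sec63 pairs made with no drug.

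The main comparison asked how much of this ER translation was lost as Srp72 was removed. After 30 min of auxin, 7 of the 10 messages had fallen at ER baits, and the ligase HRD1 had fallen most, by 2.10 ± 0.25 on the log2 scale (edgeR adjusted p = 0.000199, n = 3 series). The 4 other polytopic members fell by 1.43 to 1.81, while HRD3 and CUE1 fell by less than 0.8. YOS9, UBC6 and UBC7 did not pass. Among all genes tested, 11.5% passed as lower and 8.85% as higher, 20.4% in either direction. The members' median was -1.10, against 0.15 over all genes.

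Over time, HRD1 enrichment in the Sec63 series was 4.21 at 0, 2.55 at 15, 1.58 at 30 and 1.49 at 60 min. In the Ubc6 series it was 3.13 at 0, 2.66 at 15, 1.05 at 30 and 0.60 at 60 min, and without cycloheximide 1.96 at 0, 0.39 at 30 and -0.02 at 60 min. Every ER series thus declined, most of it within 30 min. Only 0.8% of all genes tested, and 4% of the 1030 genes that passed as higher at ER baits at 0 min, had a lower change at 30 min than HRD1.

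HRD3, whose protein binds Hrd1 in the complex, kept far more of its enrichment. Values in the Sec63 series were 4.24 at 0, 3.61 at 15, 2.99 at 30 and 3.13 at 60 min. In the Ubc6 series they were 3.46 at 0, 3.88 at 15, 3.0 at 30 and 2.67 at 60 min, and without cycloheximide 2.69 at 0, 2.11 at 30 and 1.99 at 60 min. HRD3 was still at 1.99 or more in every ER pair. It fell by 0.78 ± 0.18 after 30 min (edgeR adjusted p = 0.00959) and by 0.88 ± 0.18 after 60 min (adjusted p = 0.00354). The 30 min call was lost when enrichments were scaled by library totals (-0.46, adjusted p = 0.0585).

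The change of HRD1 minus that of HRD3 after 30 min was -1.37 in the Sec63 series, -1.63 in the Ubc6 series and -0.98 without cycloheximide, a mean of -1.33 ± 0.32 (SD, n = 3 series). After 60 min the mean was -1.54 ± 0.23. All 3 series had HRD1 falling further, the most that 3 series can show, since an exact 2-sided sign-flip test over 3 series cannot go below p = 0.25.

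YOS9 was the member with a cleaved signal that did not fall. Its values in the Sec63 series were 3.97 at 0, 3.84 at 15, 3.75 at 30 and 4.21 at 60 min. In the Ubc6 series they were 2.80 at 0, 3.89 at 15, 3.66 at 30 and 3.77 at 60 min, and without cycloheximide 1.79 at 0, 2.45 at 30 and 2.75 at 60 min. The later pairs of the last 2 series all lay above their 0 min pair. The fitted change was 0.41 ± 0.20 after 30 min (edgeR adjusted p = 0.186) and 0.71 ± 0.20 after 60 min (adjusted p = 0.0193), against 0.29 for the median gene at 60 min. This rise did not hold with DESeq2 (0.44, adjusted p = 0.218), with median centring (0.42, edgeR adjusted p = 0.255), without the low-count filter (0.59, edgeR adjusted p = 0.0553) or when any 1 of the 5 series was left out. With library totals it passed at 30 min as well (0.73, edgeR adjusted p = 0.00662), where the median gene was at 0.46.

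DER1, a small polytopic member held to help form the exit channel, fell steeply in the Sec63 series, with 4.05 at 0, 1.76 at 15, 1.28 at 30 and 1.37 at 60 min. It fell less in the Ubc6 series, with 1.81 at 0, 1.79 at 15, 0.63 at 30 and 1.04 at 60 min, and without cycloheximide it had 1.10 at 0, -0.22 at 30 and 0.61 at 60 min. At 60 min all 3 values were above those at 30 min. Its fitted change was -1.81 ± 0.39 after 30 min (edgeR adjusted p = 0.00605) and -1.37 ± 0.39 after 60 min (adjusted p = 0.0189), and no change between those times passed (0.44 ± 0.38). The 60 min call was lost without the Sec63 series (-0.97, edgeR adjusted p = 0.0886) and without the Ubc6 series (-1.71, adjusted p = 0.0625). DER1 had the lowest counts of the group, down to 36 footprints in the Ubc6 input at 0 min, where the counting interval alone was ± 0.52 (95%).

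DFM1 fell in each ER series. It had 4.13 at 0, 2.93 at 15, 1.98 at 30 and 1.72 at 60 min in the Sec63 series, and 2.91 at 0, 2.30 at 15, 1.17 at 30 and 0.87 at 60 min in the Ubc6 series. Without cycloheximide it had 1.63 at 0, 0.67 at 30 and 0.19 at 60 min. The fitted change was -1.62 ± 0.23 after 30 min (edgeR adjusted p = 0.000386) and -1.96 ± 0.22 after 60 min (adjusted p = 6.62e-05). Its difference from DER1 changed sign between series (0.61, -0.56 and 0.36 at 30 min), so the 2 derlins had no order beyond their spread.

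USA1 ended near 0 in every ER series. Its values were 3.16 at 0, 1.32 at 15, 0.62 at 30 and 0.17 at 60 min in the Sec63 series, and 1.76 at 0, 1.01 at 15, 0.44 at 30 and 0.15 at 60 min in the Ubc6 series. Without cycloheximide it had 0.42 at 0, -0.03 at 30 and -0.24 at 60 min. The fitted change was -1.45 ± 0.34 after 30 min (edgeR adjusted p = 0.0101) and -1.76 ± 0.34 after 60 min (adjusted p = 0.00236). Without the Ubc6 series neither passed (edgeR adjusted p = 0.113 and 0.0552).

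SSM4 had 3.67 at 0, 2.90 at 15, 1.73 at 30 and 1.47 at 60 min in the Sec63 series, and 2.40 at 0, 2.67 at 15, 1.52 at 30 and 1.18 at 60 min in the Ubc6 series. Without cycloheximide it had 2.08 at 0, 0.67 at 30 and 0.17 at 60 min. The Doa10 message thus fell by 1.43 ± 0.19 after 30 min (edgeR adjusted p = 0.00027) and by 1.79 ± 0.19 after 60 min (adjusted p = 3.88e-05). The change of HRD1 minus that of SSM4 was below 0 in all 3 series at 30 min, with a mean of -0.68 ± 0.52 (SD, n = 3), little more than the spread between series.

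CUE1 fell by like amounts at Sec63 with and without cycloheximide (-0.98 and -0.95 after 60 min), from unlike starting levels. It had 4.24 at 0, 3.76 at 15, 3.34 at 30 and 3.26 at 60 min in the Sec63 series, and 3.17 at 0, 3.72 at 15, 3.03 at 30 and 2.54 at 60 min in the Ubc6 series. Without cycloheximide it had 1.59 at 0, 0.62 at 30 and 0.64 at 60 min. The fitted change was -0.69 ± 0.18 after 30 min (edgeR adjusted p = 0.0179) and -0.87 ± 0.18 after 60 min (adjusted p = 0.00352). The 30 min call was lost with library totals (-0.36, edgeR adjusted p = 0.146), without the Sec63 series (-0.79, adjusted p = 0.0597) and without its counterpart lacking the drug (-0.55, adjusted p = 0.13). CUE1 fell less than SSM4 in all 3 series, with a mean difference of 0.74 ± 0.30 (SD, n = 3).

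UBC7 and UBC6 lay between -0.91 and 0.49 in every pair. UBC7 had -0.91 at 0, -0.28 at 15, -0.32 at 30 and -0.19 at 60 min in the Sec63 series, -0.20 to -0.31 in the Ubc6 series, and 0.11 at 0, 0.29 at 30 and 0.49 at 60 min without cycloheximide. UBC6 had -0.50 at 0, -0.53 at 15, -0.74 at 30 and -0.53 at 60 min in the Sec63 series, and -0.08 at 0, 0.09 at 30 and 0.09 at 60 min without cycloheximide. Neither passed after 30 min (0.24 ± 0.16 and 0.06 ± 0.18) or 60 min (0.36 ± 0.16 and 0.34 ± 0.18, edgeR adjusted p = 0.105 and 0.142).

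In the series whose bait carries the UBC6 tail, UBC6 had -0.81 at 0, -0.32 at 15, -0.52 at 30 and 0.15 at 60 min. Its input level there was 78.6 to 112 CPM (counts scaled to a common library size) (mean 93.3, n = 4 inputs), against 68.8 to 104 in the other series (mean 88.9, n = 11), a ratio of 1.05. Reads from the tail in the construct and from the native gene cannot be told apart. Without that series the ER change of UBC6 was -0.14 after 30 min (edgeR adjusted p = 0.623) and -0.07 after 60 min (adjusted p = 0.776).

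**Figure D3:**
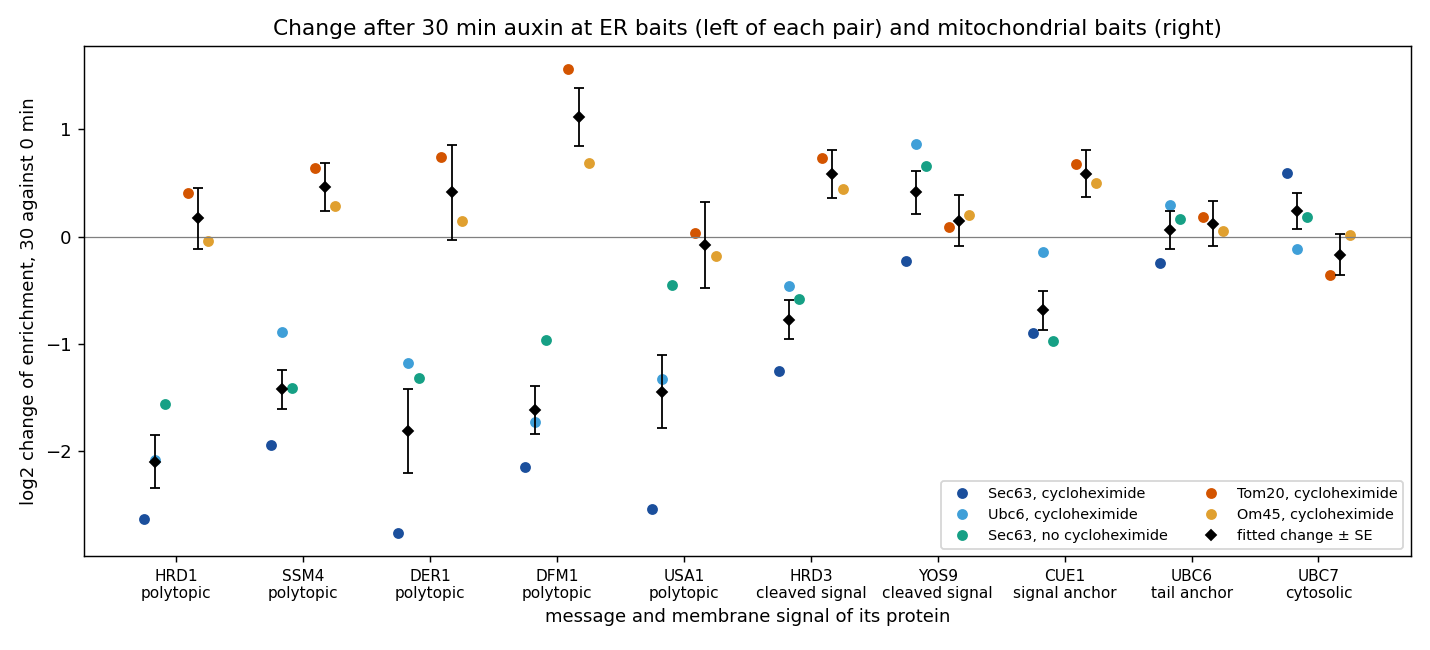
Change of enrichment after 30 min of auxin (log2, y axis) for each ERAD message, with ER series left and mitochondrial series right of each pair, 1 point per series and the fitted change ± SE as a diamond. The 5 polytopic messages lie lowest at the ER (fitted -2.10 to -1.43), HRD3 and CUE1 lie between, and DFM1 is highest at mitochondria (1.12).

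By membrane signal, all 5 polytopic members fell after 30 min (fitted -2.10 to -1.43), as did 1 of 2 with a cleaved signal (HRD3) and the signal-anchored CUE1, and neither the tail-anchored nor the cytosolic member passed. The fitted 30 min changes of HRD3 and CUE1 were both nearer 0 than that of any polytopic member. This order did not hold in the series without cycloheximide. There the polytopic USA1 changed by -0.45 and DFM1 by -0.96, against -0.58 for HRD3 and -0.97 for CUE1. As a background, 58.7% of the 1030 genes that passed as higher at ER baits at 0 min fell after 30 min and 4.76% rose, with a median of -1.06. The 0 min libraries enter both the choice of those genes and the change. HRD3 and CUE1 ranked above 62.2% and 65.7% of them, and DER1, DFM1, USA1 and SSM4 above 12.9% to 30.5%.

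After 60 min the same 7 messages passed as lower and YOS9 as higher, among 12.3% of genes lower and 23.1% higher (35.4% in all). The share of higher genes was not stable: 1220 genes passed as higher, against 341 with DESeq2, 225 with median centring, 505 with no filter, 64 without the Sec63 cycloheximide series, 160 without Ubc6, and 275 and 274 without Tom20 and Om45. The genes that passed as lower ran from 559 to 763 over the same settings. The comparison shares its 0 min libraries with that at 30 min. HRD1 fell by 2.40 ± 0.24 (edgeR adjusted p = 3.67e-05). Its change was -2.72 in the Sec63 series, -2.52 in the Ubc6 series and -1.98 without cycloheximide. In the Ubc6 series the HRD1 input was higher by 0.98 log2 units at 60 min, which lowers the ratio there. Between 30 and 60 min no member passed and no gene of 5286 did by edgeR (0% called). At an unadjusted p below 0.05 there were 0 members and 358 genes, and DESeq2 called 0 members and 22 genes. The members' changes in that interval ran from -0.36 to 0.44.

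Pairs at 15 min exist for 2 ER series, Sec63 and Ubc6, and there no member and no gene passed by edgeR (0% called). At an unadjusted p below 0.05 there were 5 members and 885 genes, and DESeq2 called 0 members and 145 genes. The 2 series differed there. HRD1 changed by -1.66 in the Sec63 series and by -0.46 in the Ubc6 series, DER1 by -2.29 and -0.02, and SSM4 by -0.77 and 0.26. YOS9 had -0.14 and 1.09, CUE1 -0.48 and 0.55, and HRD3 -0.64 and 0.41. For all 3 of these the values had opposite signs in the 2 series. With the drug-free Sec63 pairs left out of the fit, 3 members passed as lower. They were HRD1 (-1.15, edgeR adjusted p = 0.0445), DFM1 (-0.93, adjusted p = 0.041) and USA1 (-1.36, adjusted p = 0.0256). Calls rose among all genes tested as well, with 235 genes lower and 91 higher in that refit, against 0 in the main fit. The drug-free series has no 15 min pair, so the refit used the same 15 min libraries.

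At mitochondrial baits the question was whether these messages appeared there as they left the ER. No member passed by edgeR after 30 min (3 had an unadjusted p below 0.05, and DESeq2 called 1), where 1.04% of all genes did, 0.927% as higher and 0.114% as lower. DFM1 had the highest value. With Tom20 it had 0.94 after 30 min, against -0.62 at 0 min, and with Om45 0.61 after 30 min, against -0.07 at 0 min. Both mitochondrial series thus rose above 0, and at 30 min the DFM1 pairs of the ER (0.67 to 1.98) and of mitochondria (0.61 to 0.94) overlapped. Of the ER check messages, ERG11 (1.16 with Tom20, 1.11 with Om45) and KAR2 (1.06 and 1.01) stood higher than DFM1 at 30 min. SEC61 (-0.05 and -0.03) and OST1 (-0.09 and 0.34) stood lower. The fitted change of DFM1 was 1.12 ± 0.27 (edgeR adjusted p = 0.0826), and it passed with DESeq2 (1.13, adjusted p = 0.0117) and with library totals (1.04, edgeR adjusted p = 0.0204).

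HRD3 (0.59 ± 0.22) and CUE1 (0.59 ± 0.22) came next, and neither passed by edgeR (adjusted p = 0.515 and 0.49). CUE1 had 0.16 with Tom20 and 0.39 with Om45 after 30 min, against -0.52 and -0.11 at 0 min. HRD1, the message that lost most at the ER, had -0.19 and -0.08 after 30 min, against -0.60 and -0.04 at 0 min. Its fitted change at mitochondria was 0.17 ± 0.29, and the members ran from -0.17 (UBC7) to 1.12.

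The ER change minus the mitochondrial change after 30 min was below 0 and passed for 6 members, where 10.6% of all genes passed as lower, 2.59% as higher and 13.2% in either direction. DFM1 had -2.73 ± 0.35 (edgeR adjusted p = 0.000453), HRD1 -2.27 ± 0.38 (adjusted p = 0.00188), DER1 -2.22 ± 0.59 (adjusted p = 0.0264), SSM4 -1.88 ± 0.29 (adjusted p = 0.00122), HRD3 -1.36 ± 0.29 and CUE1 -1.27 ± 0.28. USA1 had -1.37 ± 0.53 (edgeR adjusted p = 0.143), and YOS9, UBC6 and UBC7 lay between -0.06 and 0.41. The 4 ER check messages all passed as lower too, with a median of -1.72, against -1.36 for the members. Leaving out Tom20 or Om45 left 1 mitochondrial series, and genes passing became fewer over the whole table. The calls of DER1 and CUE1 were lost in both refits, and that of HRD3 without Tom20. DER1 had -2.04 without Tom20 and -2.62 without Om45, CUE1 had -1.28 and -1.44, and HRD3 had -1.32 without Tom20. DER1 was also lost without the Ubc6 series, and CUE1 with library totals. USA1 passed once the Sec63 pairs without cycloheximide were left out (-1.92, edgeR adjusted p = 0.0077).

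The 2 ER baits were compared at 4 matched times under cycloheximide. DFM1 was lower at the Ubc6 bait than at Sec63, by -1.22, -0.64, -0.81 and -0.85 at 0, 15, 30 and 60 min, with a fitted difference of -0.98 ± 0.14 (edgeR adjusted p = 0.00547). CUE1 had -1.07, -0.04, -0.31 and -0.72, with a fitted -0.63 ± 0.18 at an edgeR adjusted p of 0.05, just past the threshold. Those were the members called, where 9.8% of all genes passed and 8.17% were lower at Ubc6. Those 432 lower genes were 6 without 60 min, 41 without 15 min and 215 without 30 min. With library totals there were 186 lower and 220 higher, against 432 and 86. The CUE1 call was lost with library totals, with median centring and without any 1 of the 4 times, and DFM1 was lost without 60 min (-0.84, edgeR adjusted p = 0.0831). HRD1 had -0.67 ± 0.20 (adjusted p = 0.0578), and UBC6 and UBC7 were within their errors (0.11 ± 0.17 and 0.02 ± 0.16). With 1 series per bait, the bait and other differences between these series cannot be told apart.

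With cycloheximide, ER enrichment of 7 members was higher than without it at 3 matched times with Sec63. CUE1 had the largest difference, with 4.24, 3.34 and 3.26 with cycloheximide at 0, 30 and 60 min, against 1.59, 0.62 and 0.64 without it. The fitted difference of CUE1 was 2.88 ± 0.12 (edgeR adjusted p = 0.00105). Its differences at the 3 times (2.62 to 2.72) were nearly equal and all lay below the fitted value. That fit was scaled over its own 12 libraries and pair values over all 30. Fitted values thus stand above the means of the pair differences, as for HRD1 (mean 1.65) and UBC7 (mean -0.77). DFM1 (2.00 ± 0.26), DER1 (1.94 ± 0.43), HRD1 (1.87 ± 0.23), YOS9 (1.86 ± 0.21), SSM4 (1.54 ± 0.15) and HRD3 (1.41 ± 0.17) were also higher, where 19.2% of all genes passed as higher and 25.6% in either direction. The 4 ER check messages all passed as higher too, with a median of 1.83, against 1.70 for the members.

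UBC7 was lower with cycloheximide (-0.54 ± 0.14, edgeR adjusted p = 0.0403), as 6.43% of genes were, and this call was lost with median centring and without 30 or 60 min. Those 340 lower genes were 3032 with library totals, where the median gene had -0.80, and 177 with median centring. Without 0, 30 or 60 min they were 1018, 46 and 1. USA1 (1.47 ± 0.48, edgeR adjusted p = 0.0795) and UBC6 (-0.41 ± 0.14, adjusted p = 0.0908) did not pass, but USA1 passed with DESeq2 (adjusted p = 0.00527), and with library totals in edgeR both passed, USA1 at 0.66 (adjusted p = 0.0487) and UBC6 at -1.23 (adjusted p = 0.000424). Dropping 30 or 60 min left 6 or 7 members called and dropping 0 min left 10. The biotin pulse also differed between these series (2 min with cycloheximide, 1 min without), so drug and pulse cannot be told apart.

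In whole-cell inputs 4 of the 10 messages passed after 30 min, a share near that of all genes (45.7%, of which 21.8% as higher and 23.9% as lower). Input footprints do not tell fewer messages from fewer ribosomes on each. UBC7 rose by 0.48 ± 0.10 (edgeR adjusted p = 0.00139) and USA1 by 0.31 ± 0.08 (adjusted p = 0.00778), and both were higher in 5 of 5 series. The USA1 call was lost with library totals (0.15, edgeR adjusted p = 0.214), where 644 genes were higher and 1779 lower, against 1150 and 1265. DFM1 fell by 0.49 ± 0.11 (adjusted p = 0.00264) and HRD3 by 0.47 ± 0.10 (adjusted p = 0.00188), and both were lower in 5 of 5 series. The other 6 ran from -0.13 (HRD1) to 0.12 (CUE1 and DER1).

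UBC7 input levels in the Sec63 series were 64.1, 72.7, 84.5 and 116 CPM at 0, 15, 30 and 60 min. They were 54.6, 87.3, 88.4 and 120 in the Ubc6 series, and 67.0, 84.3 and 109 at 0, 30 and 60 min without cycloheximide. All 3 courses climbed at each step, and the 60 min change was 0.89 ± 0.12 (edgeR adjusted p = 2.88e-05). USA1 was the other member that passed at 60 min (0.52 ± 0.10, edgeR adjusted p = 0.000577), where 58.7% of all genes did, 30.6% as higher and 28.2% as lower.

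DFM1 and HRD3 rose again between 30 and 60 min. DFM1 had 88.4, 49.9, 51.0 and 71.6 CPM at 0, 15, 30 and 60 min in the Sec63 series, and its 60 min change was -0.04 ± 0.13. HRD3 had 63.1, 46.0, 43.2 and 58.3, and -0.12 ± 0.12 at 60 min. Both dipped at 15 and 30 min in that series, and at 60 min they were still at -0.30 (DFM1) and -0.11 (HRD3) against 0 min on the log2 scale. At 60 min HRD3 had -0.42 in the Ubc6 series and -0.04 without cycloheximide, and DFM1 had 0.01 and 0.08. At 15 min USA1 rose (0.50 ± 0.11, edgeR adjusted p = 0.0128) and SSM4 fell (-0.42 ± 0.12, adjusted p = 0.0333), where 13.7% of all genes passed, 5.24% as higher and 8.48% as lower. Neither call stood without the Sec63 or without the Ubc6 series, when 0 members passed. HRD1 in the Ubc6 series at 60 min stood apart, with 39.9 CPM against 19.2 to 28.0 in the other 14 inputs.

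**Figure D4:**
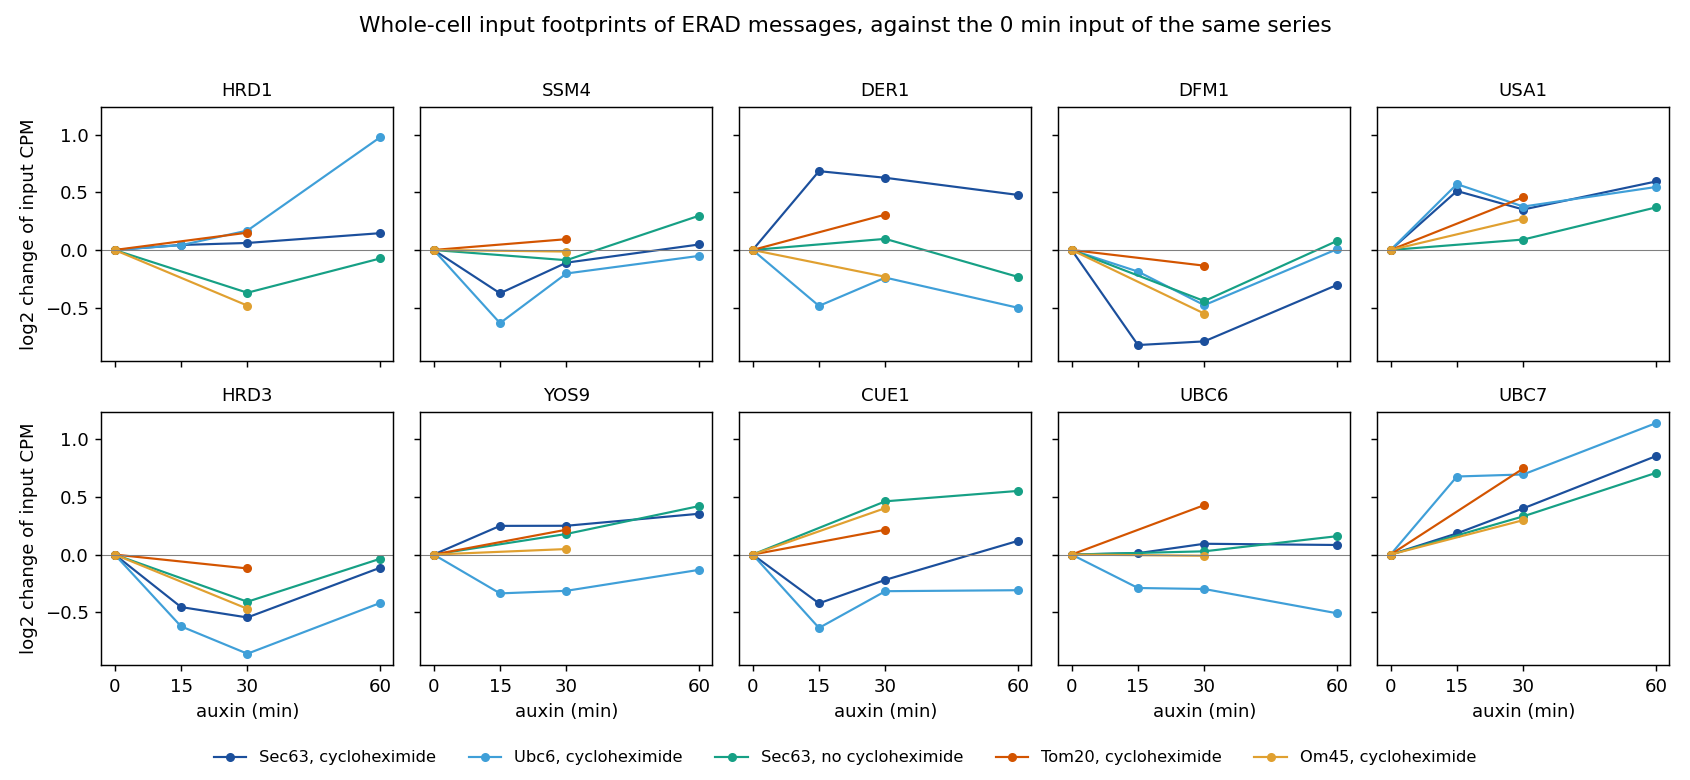
Change of the whole-cell input level (log2 of CPM, against the 0 min input of the same series, y axis) with minutes of auxin (x axis), 1 line per series. UBC7 climbs in all series and USA1 lies above 0, while DFM1 and HRD3 dip at 30 min and HRD1 in the Ubc6 series stands out at 60 min.

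Other genes of the pathway were taken from 4 lists. In the ER lumen list (KAR2, JEM1, SCJ1, PDI1, MNL1, MNL2 and MNS1), 7 of 7 were enriched at the ER at 0 min, as 19.5% of all genes were, and 5 of 7 fell after 30 min, as did 11.5% of all genes and 58.7% of the 1030 genes enriched at 0 min. MNL1, also called Htm1, the mannosidase that trims glycans for Yos9 to read, fell by 1.61 ± 0.29 (edgeR adjusted p = 0.00185), the mannosidase MNS1 by 1.29 ± 0.18 and the J protein JEM1 by 1.10 ± 0.21. MNL1 had 2.37, 2.55 and 1.23 after 30 min in the Sec63, Ubc6 and no-cycloheximide series, against 4.56, 3.98 and 2.42 at 0 min. The ER pairs of MNL1 at 30 min were each below the 0 min pair of the same series. KAR2 (0.00 ± 0.25) and PDI1 (0.53 ± 0.24), the Hsp70 and the disulfide isomerase, did not pass. In inputs KAR2 rose by 1.56 ± 0.19 after 30 min (edgeR adjusted p = 3.9e-05), while MNS1 (-1.04 ± 0.14), JEM1 (-0.91 ± 0.14), MNL1 (-0.87 ± 0.16) and MNL2 fell.

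The other membrane partners (UBX2, HLJ1, CUE4, ASI1, ASI2, ASI3 and IRE1) had 6 of 7 enriched at the ER at 0 min, and 3 of 7 fell after 30 min, beside those same shares of 19.5% at 0 min and of 11.5% and 58.7% after 30 min. UBX2, which recruits Cdc48 to the ligases, fell by 2.19 ± 0.35 (edgeR adjusted p = 0.000875). ASI1 fell by 1.88 ± 0.32 (adjusted p = 0.00142) and ASI2 by 1.37 ± 0.34 (adjusted p = 0.0132), both subunits of the inner nuclear membrane ligase. Of 4 substrates, the HMG-CoA reductases HMG1 (-0.95 ± 0.20) and HMG2 (-1.22 ± 0.20) fell after 30 min and ERG1, a squalene epoxidase degraded through Doa10, rose by 0.49 ± 0.15 (edgeR adjusted p = 0.0333). ERG1 was lower at ER baits at 0 min (-0.76 ± 0.10), and SBH2 did not pass at 30 min (0.16 ± 0.12).

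The cytosolic list, 12 genes that extract and process substrates, had 0 of 12 higher and 9 of 12 lower at ER baits at 0 min, where 44.5% of all genes were lower, and DESeq2 called 6 of 12 lower. After 30 min 0 of 12 passed at ER baits by edgeR (2 at an unadjusted p below 0.05) and 0 by DESeq2. In inputs 9 of 12 rose after 30 min and 11 of 12 after 60 min, where 21.8% and 30.6% of all genes rose. NPL4 rose by 1.52 ± 0.14 after 60 min (edgeR adjusted p = 2.06e-06), the deubiquitinase OTU1 by 1.46 ± 0.12 and the Cdc48 cofactor UBX4 by 1.41 ± 0.14. The list's median after 60 min was 0.76, against 0.17 for the ligases and their partners and 0.06 over all genes.

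**Figure D5:**
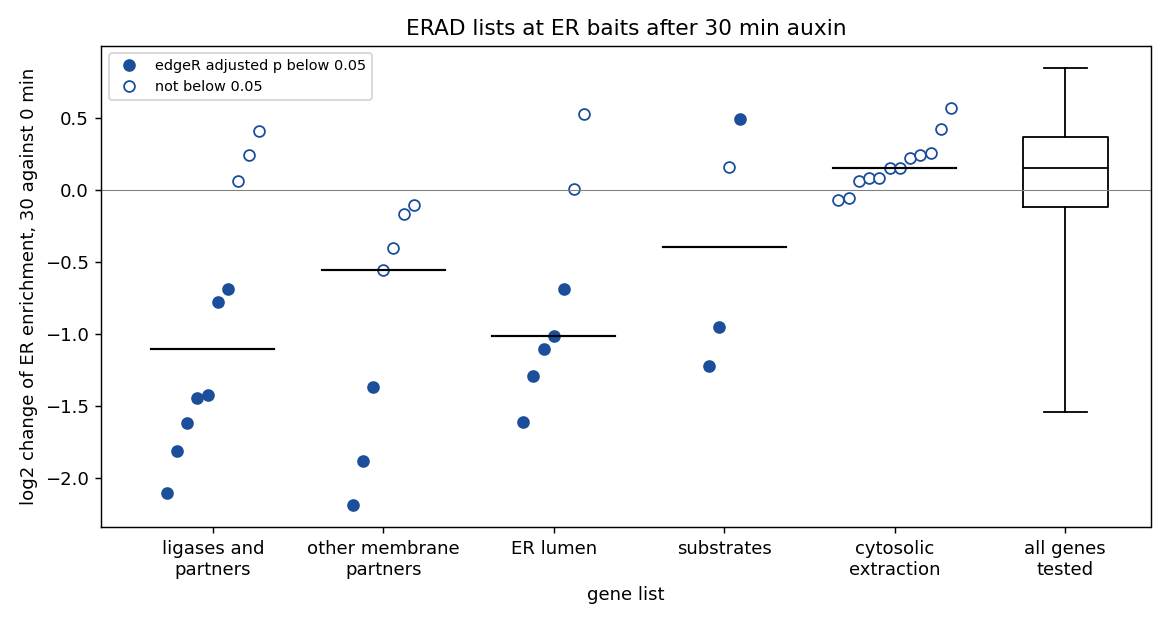
Change of ER enrichment after 30 min of auxin (log2, y axis) for each gene of the ERAD lists, filled where the edgeR adjusted p was below 0.05, with list medians as lines; the box shows the quartiles of all 5286 genes tested and whiskers the 5th and 95th percentiles. The ligases and partners have 7 filled points below 0 and the cytosolic list has none.

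Each member was set against all genes tested for likeness of enrichment over the 15 pairs (Pearson r, a description, since pairs share series and scaling). HRD1 was most like PMT6 (r = 0.995), PHO8 and TRE2, and SSM4 most like CHO2 (0.993), PMT1 and PMT3. DFM1 was most like FUN26 (0.994), ERG11 and DIP5, USA1 like CHO1 (0.989), VPH1 and SPC2, and DER1 like YDC1 (0.969), POM33 and YPL162C. HRD3 was most like MNN4 (0.995), DSE4 and KTR4, YOS9 like YPS1 (0.998), ROT1 and BGL2, and CUE1 like FMN1 (0.992), NPC2 and ERP2. UBC7 was most like SIC1 (0.959), YPI1 and CCS1, and UBC6 like MTR3 (0.924), ETT1 and RRP46. No member was among the 3 most like genes of another.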

How the data were processed

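The authors deposited, for each of 30 libraries, footprint counts and RPKM per gene, per the file headers. Counts were used as deposited for all tests, and the authors' RPKM, scaled by length and a library total per the file headers, only to rank levels of genes. Per the submitters' processing notes, CASAVA, Bowtie 1.1.2, TopHat2 2.1.1 and the build sacCer3 were used. For molecular identifiers, strandedness and multiple matches the treatment is not given in the sources used here, so counts of overlapping genes are uncertain and counting intervals cover counting error only. A reference table (R64) named 5887 of the listed genes. Reference sequences of the members were not used here.

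Tests covered genes whose input count averaged 20 or more, by quasi-likelihood F tests of edgeR 4.0.16 under R 4.3.3 (TMM scaling, 2-sided, Benjamini-Hochberg over 5286 genes, threshold 0.05). Pairs were a block and enrichment was the interaction of fraction and condition. A joint model of 30 libraries (6 residual degrees of freedom) gave enrichment at 0 min, changes and their difference between surfaces, models of 10, 16 and 12 libraries (3, 3 and 2) gave surface, bait and cycloheximide comparisons, and 15 inputs (7) with series as a block gave input changes. Values per pair have a prior count of 1 and were scaled over all 30 libraries, while each model was scaled over its own libraries. Models were tested on simulated data. Alternatives were DESeq2 1.42.0, library totals, median centring, no filter, a prior count of 5 and leaving out each series; leaving out each matched time was added after seeing the data. The members, lists and tests were chosen with earlier results of these data known. All members are named, together with up to 3 genes per direction of each list, the 3 most like genes of each member and fixed check genes; KAR2, PDI1, SBH2 and the 0 min value of ERG1 are given beside their lists and were picked after their values were seen.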

Additional observations from a re-analysis of the deposited data

Results flagged for a closer look

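The change of enrichment after 30 min of auxin differed between ER and mitochondrial baits for 6 of the 10 messages, by the test of the difference itself (edgeR, 3 ER against 2 mitochondrial series), where 13.2% of all genes passed. Leaving out Tom20 or Om45 left 1 mitochondrial series, and fewer members and fewer genes of the whole table then passed. Other ER messages did the same, so the difference is not particular to the ligases and their partners. Of the ER check messages 4 of 4 passed as lower (median -1.72), and of the ER lumen list 6 of 7 (median -1.70). Of the other membrane partners 4 of 7 did (median -1.36), and the median of the 10 messages was -1.36. As ER minus mitochondrial change in log2 units, DFM1 had -2.73, HRD1 -2.27, DER1 -2.22, SSM4 -1.88, HRD3 -1.36 and CUE1 -1.27. For DFM1 the ER change was -1.62 and the mitochondrial change 1.12, and for HRD1 they were -2.10 and 0.17. The Tom20 strain background differs from that of the ER series, and its part in the difference was not tested. In the Om45 series, which has the S288C background of the ER series, DFM1 changed by 0.69 and HRD1 by -0.04, and in the Tom20 series by 1.56 and 0.41.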

How the results depend on the processing

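Of 789 alternative values of single members, 678 kept their direction and their side of the threshold, 68 lost a call, 19 gained one and 24 changed sign, each from a main value of at most 0.36 in size. With DESeq2, UBC6 at ER baits after 30 min was -0.01 and 1 member (DFM1) passed at mitochondria. With library totals, HRD3 and CUE1 after 15 min were 0.089 and 0.10, UBC6 was 0.34 as ER minus mitochondrial change and -0.50 as ER over mitochondrial baits, and 1 member passed at mitochondria and 1 for the Ubc6 bait. With median centring, UBC6 after 30 min was -0.089 and 1 member passed for the Ubc6 bait.

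Leaving out each series in turn moved the members called from 0 to 3 (ER change after 15 min), 5 to 7 (60 min), 3 to 7 (ER minus mitochondrial change), 0 to 8 (ER over mitochondrial baits) and 0 to 4 (inputs after 15 min), and leaving out a time moved them from 0 to 1 for the Ubc6 bait. UBC7 ran from -0.58 to 0.20 in enrichment at 0 min, from -0.15 to 0.27 and from -0.18 to 0.39 in ER change after 30 and 60 min, from -0.20 to 0.28 against mitochondria and from -0.12 to 0.25 between ER baits. UBC6 ran from -0.14 to 0.007 and from -0.073 to 0.44 after 30 and 60 min, from -0.25 to 0.073 as ER minus mitochondrial change and from -0.092 to 0.18 against mitochondria. After 15 min HRD3 ran from -0.52 to 0.33 and CUE1 from -0.56 to 0.26, and YOS9 ran from -0.022 to 0.58 as ER minus mitochondrial change. In the comparisons whose member counts moved, the number of genes passing over the whole table moved as well. The cause of these moves was not tested, beyond fewer samples in each such fit.

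Scaling moved the median gene at ER baits after 30 min from 0.15 (TMM) to 0.46 (library totals) and 0.00 (centred), so changes near those sizes have no fixed sign. There, 608 genes were lower and 468 higher with TMM, 550 and 1603 with library totals, and 655 and 209 when centred; without the Sec63 cycloheximide series they were 450 and 66. Replicates could not be paired across conditions, because no group has a second library and no replicate numbers are shared. Each pulldown and its input were a pair in the enrichment fits, and the series was the block in the input fit. Depth limits DER1 and HRD1 most, with median counting intervals of ± 0.26 and ± 0.20 per pair.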

Other observations

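UBX2, singled out after its values were seen, had high pulldown over input at both surfaces before auxin. Its protein recruits Cdc48 at the ER and is also known to act at the mitochondrial import channel. At 0 min it had 3.30 in the Sec63 series, 2.85 in the Ubc6 series and 1.07 without cycloheximide, against 2.41 with Tom20 and 2.12 with Om45. The ranges overlapped, and the fitted ER over mitochondrial difference was 0.24 ± 0.76 (edgeR adjusted p = 0.938). The median of that difference was 3.14 for the 10 ligases and partners and -0.05 over all genes.

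After 30 min of auxin UBX2 had 0.15, 0.43 and 0.04 at the same ER baits, while it had 3.43 with Tom20, against 2.41 at 0 min, and 3.15 with Om45, against 2.12 at 0 min. At 30 min all ER pairs were below all mitochondrial pairs. The mitochondrial change was 1.03 ± 0.40 and did not pass (edgeR adjusted p = 0.544), and the ER change minus the mitochondrial change was -3.22 ± 0.53 (adjusted p = 0.00184).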
